A study of Homo sapiens with 12 samples.

Results

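The proteasome genes described here were the rows of the expression table whose symbols name the subunits of the 20S core particle (PSMA, PSMB), the subunits of the 19S cap (PSMC, PSMD), the activators (PSME), the inhibitor PSMF1 and the assembly chaperones of the core (PSMG). The rule took 46 genes of the 57152 rows with a value. Of these, 45 passed the filter of a mean of at least 1 TPM (a level per transcript length, scaled so that each library has the same total) over the 12 libraries, against 13968 genes tested in all. The exception was PSMA8, the testis-specific alpha subunit, which was listed at 0 in all 12 libraries. The members were sorted by role into 8 alpha ring genes, 7 constitutive beta ring genes, 5 immunoproteasome genes (PSMB8, PSMB9, PSMB10, PSME1, PSME2), 6 cap ATPases, 11 cap non-ATPases, 2 chaperones of the cap (PSMD5, PSMD9), 4 chaperones of the core and 3 other regulators (PSME3, PSME4, PSMF1).

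The proteasome degrades proteins marked with ubiquitin. Its core is a barrel of alpha and beta rings, and only PSMB5, PSMB6 and PSMB7 in the beta rings cut peptide bonds, while the cap recognises ubiquitin chains, removes them and threads the substrate inward with its ATPases. Interferon signalling induces PSMB8, PSMB9 and PSMB10, which replace PSMB5, PSMB6 and PSMB7 in newly built cores, together with the PA28 activator made of PSME1 and PSME2, and the resulting immunoproteasome supplies peptides for antigen presentation on class I molecules. When proteasome activity falls short, the transcription factor NFE2L1 (NRF1) raises the subunit genes together through antioxidant response elements in their promoters. Lung epithelium can raise the inducible form in response to interferon.

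A549 is a human lung adenocarcinoma line, and LB cells are a line for which the labels give A549 as the source; the sources used here do not say whether LB cells are a single clone. Each of 4 groups had 3 libraries: A549 cells with 0.1% DMSO as vehicle, LB cells with the same vehicle, LB cells with 10 µM amiodarone for 24 h, and LB cells with the same dose of amiodarone after seeding in 10 mg/ml hydroxypropyl-beta-cyclodextrin (HPbCD), 24 h before the drug. All 4 groups, those with vehicle included, had 24 h of preincubation and then 24 h of treatment. Amiodarone is a cationic antiarrhythmic drug with known lung toxicity, and HPbCD is a sugar ring that binds cholesterol. The series title asks whether changing lipid balance with HPbCD relieves the disorder that the drug causes in alveolar cells. HPbCD without the drug, and the drug in A549, were not analysed here, so HPbCD was seen only on top of amiodarone.

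Each library's TPM values summed to between 999449 and 999632, with 20966 to 22261 genes above 0. TPM keeps no read depth, so neither the depth nor the counting error of a value is known. The labels do not state that the 3 libraries of a group came from different cultures, and p-values therefore measure only the spread between these libraries, which may be technical. Epithelial keratin and adhesion markers summed to 7254 to 7791 TPM in A549 and to 2561 to 3223 TPM in the LB groups, and the 6 alveolar type II markers to 22.3 to 22.7 TPM in A549 against 1166 to 1579 TPM in the LB groups. The 6 leukocyte markers, whose cells are rich in immunoproteasome, summed to between 1.69 and 7.22 TPM, with CD3E at 0 in all 12 libraries and the sum lowest in LB cells with amiodarone plus HPbCD (1.69 to 2.47 TPM). The 5 endothelial markers stayed under 0.9 TPM in sum, and the 5 fibroblast markers summed to 3.39 to 5.65 TPM in A549, 10.5 to 11.3 in LB DMSO, 10.2 to 15.5 with amiodarone and 6.35 to 7.2 with amiodarone plus HPbCD. Mitochondrially encoded genes took 6.27 to 9.19% of TPM in A549, 6.73 to 8.41% in LB DMSO, 5.61 to 8.49% with amiodarone and 5.38 to 6.73% with amiodarone plus HPbCD. Their part in the results below was not tested.

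Promoters of 40 of the 46 members were found in the RefSeq table of the GRCh38.p14 build, each 300 bases long, from 250 before the transcription start to 50 from it onward. They were searched on both strands for the antioxidant response element TGACNNNGC, the CCAAT box CCAAT and the interferon-stimulated response element, GAAA and GAAA set 2 bases apart (GAAA, NN, GAAA). None of the 3 patterns is part of another. The promoters of the 5 immunoproteasome genes are shown because these genes share an inducer and did not pass the same tests. Those of PSMD3 and PSMC4 are shown from among the 5 cap genes that rose with HPbCD against amiodarone. Capitals mark the matches, on either strand, and all are printed 5′ to 3′ on the gene's own strand.
PSMB8, chr6:32844630-32844929, minus strand: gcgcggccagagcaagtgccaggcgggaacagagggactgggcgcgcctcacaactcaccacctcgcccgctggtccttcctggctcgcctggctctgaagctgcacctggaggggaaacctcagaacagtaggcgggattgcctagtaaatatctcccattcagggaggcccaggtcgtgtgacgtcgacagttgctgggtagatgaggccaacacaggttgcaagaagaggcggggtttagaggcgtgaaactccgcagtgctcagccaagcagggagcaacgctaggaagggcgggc
PSMB9, chr6:32853942-32854241, plus strand: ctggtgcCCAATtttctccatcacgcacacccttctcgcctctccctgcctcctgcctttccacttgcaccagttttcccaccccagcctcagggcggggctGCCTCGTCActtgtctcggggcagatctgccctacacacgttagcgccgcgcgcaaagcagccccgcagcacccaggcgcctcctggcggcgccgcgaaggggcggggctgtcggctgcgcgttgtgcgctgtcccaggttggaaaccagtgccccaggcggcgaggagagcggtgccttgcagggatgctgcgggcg
PSMB10, chr16:67936801-67937100, minus strand: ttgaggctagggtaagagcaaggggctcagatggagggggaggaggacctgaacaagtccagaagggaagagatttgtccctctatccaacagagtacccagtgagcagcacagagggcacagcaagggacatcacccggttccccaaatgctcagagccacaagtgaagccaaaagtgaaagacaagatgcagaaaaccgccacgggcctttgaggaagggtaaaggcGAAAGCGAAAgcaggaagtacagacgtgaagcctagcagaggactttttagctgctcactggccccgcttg
PSME1, chr14:24135944-24136243, plus strand: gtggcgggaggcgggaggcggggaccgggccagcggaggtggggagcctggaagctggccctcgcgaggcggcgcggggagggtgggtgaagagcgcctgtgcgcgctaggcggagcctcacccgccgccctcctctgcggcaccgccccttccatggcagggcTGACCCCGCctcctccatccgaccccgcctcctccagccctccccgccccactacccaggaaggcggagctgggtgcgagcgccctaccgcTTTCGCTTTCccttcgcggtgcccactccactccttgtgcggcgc
PSME2, chr14:24146561-24146860, minus strand: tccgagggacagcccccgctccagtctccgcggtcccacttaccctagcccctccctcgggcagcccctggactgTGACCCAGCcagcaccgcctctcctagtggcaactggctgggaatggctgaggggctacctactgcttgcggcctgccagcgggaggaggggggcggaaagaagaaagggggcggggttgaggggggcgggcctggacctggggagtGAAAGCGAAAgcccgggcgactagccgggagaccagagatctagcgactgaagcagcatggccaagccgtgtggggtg
PSMD3, chr17:39980557-39980856, plus strand: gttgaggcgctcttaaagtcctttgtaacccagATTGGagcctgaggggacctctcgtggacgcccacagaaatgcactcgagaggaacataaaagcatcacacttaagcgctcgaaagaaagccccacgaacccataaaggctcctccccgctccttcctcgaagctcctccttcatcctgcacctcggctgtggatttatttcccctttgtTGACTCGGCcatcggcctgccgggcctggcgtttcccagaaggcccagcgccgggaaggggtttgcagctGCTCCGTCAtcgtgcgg
PSMC4, chr19:39970915-39971214, plus strand: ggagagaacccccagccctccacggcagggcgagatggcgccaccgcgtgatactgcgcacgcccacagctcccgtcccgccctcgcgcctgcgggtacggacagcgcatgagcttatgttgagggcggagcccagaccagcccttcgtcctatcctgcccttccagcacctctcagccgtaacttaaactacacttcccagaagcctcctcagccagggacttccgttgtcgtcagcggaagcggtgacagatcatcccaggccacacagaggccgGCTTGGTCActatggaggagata

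The interferon-stimulated pattern was in 3 of these 5 immunoproteasome promoters, 21 bases before the start in PSMB10, 28 bases before it in PSME2 and just after it in PSME1. The PSMB9 window held no interferon-stimulated match but a CCAAT box and an antioxidant response match 148 bases before the start. By the RefSeq starts, PSMB9 and TAP1, a peptide transporter gene, start 488 bases apart on chromosome 6 and run in opposite directions. The TAP1 window held 2 interferon-stimulated matches. The PSMB8 window held none of the 3 patterns. PSMD3 had an antioxidant response match 37 bases before the start and another after it, and PSMC4 had 1 after its start. The other cap genes that rose with HPbCD against amiodarone held no antioxidant response match. PSMC3 and PSMD8 held only a CCAAT box and PSMD13 held none of the 3 patterns. Over the 40 member promoters, the antioxidant response pattern was in 13 (32.5%) against 14.3% of all 17441 promoters of the same length, the interferon-stimulated pattern in 6 (15%) against 3.31%, and the CCAAT box in 17 (42.5%) against 36.2%. By role, the antioxidant response pattern was in 0 of 7 alpha ring, 1 of 4 constitutive beta ring and 3 of 5 immunoproteasome promoters. In the cap it was in 1 of 6 ATPase and 3 of 10 non-ATPase promoters. It was also in 2 of 2 cap chaperone, 2 of 3 core chaperone and 1 of 3 other regulator promoters. Outside the immunoproteasome genes, the interferon-stimulated pattern was in PSMA4, PSMB4 and PSMG4. These small classes were not compared by a test. A match describes letters and is no evidence that a factor binds there, and a window without one says only that the letters are not in it.

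**Figure D1:**
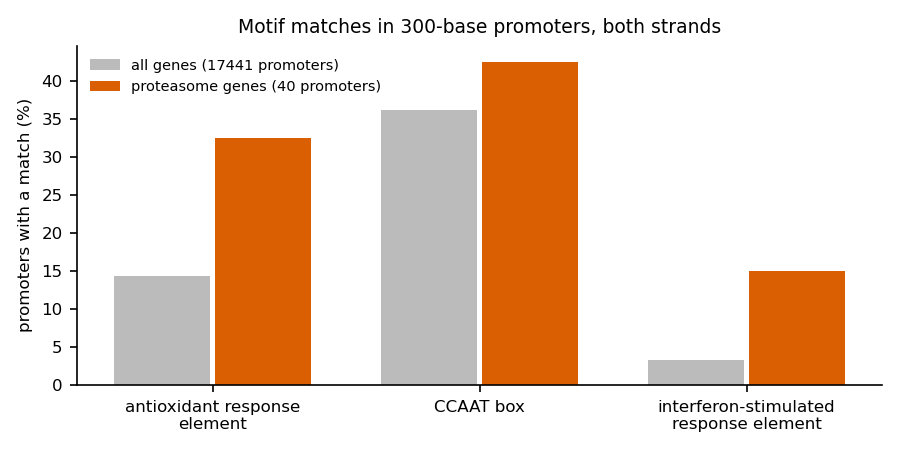
Share of promoters (y axis, percent) with at least 1 match of each of 3 sequence patterns (x axis), for all 17441 promoters (grey) and the 40 proteasome promoters (orange). The orange bars stand at 32.5%, 42.5% and 15%, against grey bars at 14.3%, 36.2% and 3.31%.

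The 46 members together took 0.903 to 0.952% of TPM in A549, 0.946 to 0.982% in LB DMSO, 0.849 to 0.8998% with amiodarone and 0.958 to 0.989% with amiodarone plus HPbCD. The amiodarone libraries were thus the 3 lowest of the 12 in their summed share, and A549 and LB DMSO overlapped. TPM is scaled per transcript length, so levels of different genes can be set side by side within a library. In LB DMSO the highest members were PSMA7, an alpha subunit, at 555.7 ± 12.5 TPM (SD, n = 3), PSMD8, a cap lid subunit, at 550.2 ± 23.7, and PSMB6, the caspase-like catalytic subunit, at 518.8 ± 15.9. PSMA7 and PSMD8 did not differ beyond their spread there. The lowest that were detected were PSME4, the nuclear activator PA200, at 19.01 ± 0.88 TPM, and PSMB8 at 29.6 ± 2.1. The catalytic immunoproteasome genes were low throughout: PSMB8, PSMB9 and PSMB10 together made 8.14 to 10.95% of the summed TPM of the 6 catalytic genes. By contrast PSME1 (119.5 ± 6.5 TPM) and PSME2 (216.2 ± 4.8 TPM) lay in the range of the cap genes in LB DMSO.

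Between LB cells and A549, both with vehicle, the 7 constitutive beta ring genes of the core all had higher means in LB cells, 4 of them past the test, and PSME1 of the PA28 activator was lower. Of the 45 tested members 8 were higher and 5 lower at a limma adjusted p under 0.05. Over all genes tested, 32.4% were called, 14.2% higher and 18.2% lower, so that the members' shares were near or under the background. The 3 libraries of each group did not overlap in 11 members that were higher and 7 that were lower, against 18.6% and 25.1% of all genes. The median log2 difference, on the log2(TPM + 1) scale used throughout, was 0.04 over the members and -0.04 over all genes. In bulk RNA, fewer cells that express a gene and less RNA per cell cannot be told apart, here and in every comparison that follows.

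In the beta ring, 4 of 7 genes rose and none fell. PSMB4, a structural subunit, stood at 332, 343 and 348 TPM in A549 and at 422, 433 and 435 TPM in LB DMSO. The groups did not overlap, and PSMB4 rose by 26.0% (log2 difference 0.33 ± 0.03 SE, limma adjusted p = 1.2e-05). PSMB1, another structural subunit, rose from 202.1 ± 12.3 to 249.3 ± 8.8 TPM (limma adjusted p = 0.0025). PSMB5, the chymotrypsin-like catalytic subunit and the target of bortezomib, rose from 277.1 ± 14.6 to 323.8 ± 9.8 TPM (0.0032 by the same test), and PSMB7, the trypsin-like subunit, from 297.5 ± 16.4 to 357.8 ± 9.7 TPM (0.0005). The remaining PSMB2, PSMB3 and PSMB6 had higher means in LB cells without passing the test. In the alpha ring none of the 7 tested genes rose, while PSMA3 fell by 10.98% and PSMA7 fell by 8.93%. The other 5 did not pass, 3 alpha genes had higher and 4 lower means in LB cells (median log2 difference -0.06), and the rings were not compared by a test.

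In the cap, none of the 6 ATPases passed the test (limma, 0 also at an unadjusted p under 0.05), their log2 differences lying between -0.03 and 0.06. Among the 11 non-ATPases, PSMD4, a ubiquitin receptor, rose from 223, 236 and 238 TPM to 279, 283 and 284 TPM, with no overlap (log2 difference 0.28 ± 0.04 SE, limma adjusted p = 0.00018). The lid subunits PSMD3 and PSMD11 rose by 8.70% and 11.1%, and PSMD6, also of the lid, fell by 14.6% from 97.4 ± 0.4 to 83.2 ± 3.4 TPM (limma adjusted p = 0.0047). Among the chaperones that build the core, PSMG4 (PAC4) rose from 30.1, 31.3 and 32.9 TPM to 42.9, 44.5 and 44.8 TPM. Its groups were far apart for their spread, and the rise of 40.1% was the largest among the members in this comparison (limma adjusted p = 4.1e-05). PSMG2 (PAC2), which pairs with PSMG1, fell by 15.8%.

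PSME1, the alpha subunit of PA28, stood at 157, 162 and 161 TPM in A549 and at 126, 119 and 113 TPM in LB DMSO. It fell by 25.2% without overlap (log2 difference -0.42 ± 0.06 SE, limma adjusted p = 0.00024). Its partner PSME2 went from 237.1 ± 20.1 to 216.2 ± 4.8 TPM and did not pass the test (adjusted p = 0.116). Among the catalytic genes, PSMB9 went from 28.4, 36.3 and 29.3 TPM to 41.7, 43.1 and 36.8 TPM, groups that did not overlap but missed the threshold in limma (adjusted p = 0.0575). It passed in 7 of 22 alternatives, among them those that left out replicate 2 of A549 DMSO or replicate 3 of amiodarone plus HPbCD, with adjusted p from 0.00997 to 0.166 over all of them. PSMB8 was at 29.8 ± 0.9 and 29.6 ± 2.1 TPM, and PSMB10 went from 55.8 ± 7.4 to 51.1 ± 1.7 TPM without passing.

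The calls of PSMB1, PSMB4, PSMB5, PSMB7, PSMD4, PSMD6, PSMG4 and PSME1 held in each of 22 alternatives. The other 5 did not: PSMA3 was lost without LB DMSO replicate 1 or 2 (adjusted p up to 0.0741), PSMA7 without A549 DMSO replicate 2 or 3 or LB DMSO replicate 1 or 2 (up to 0.104), PSMG2 without A549 DMSO replicate 1 or 3 or LB DMSO replicate 2 or 3 (up to 0.099), PSMD11 without any A549 DMSO library or LB DMSO replicate 2 or 3 (up to 0.123), and PSMD3 without any library other than A549 DMSO replicate 3 (up to 0.167). With median-of-ratios scaling the split became 12 higher and 2 lower, and with quantile normalization 13 and 3, in place of 8 and 5; without LB DMSO replicate 1 or 2 the lower count was 3 or 2.

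**Figure D2:**
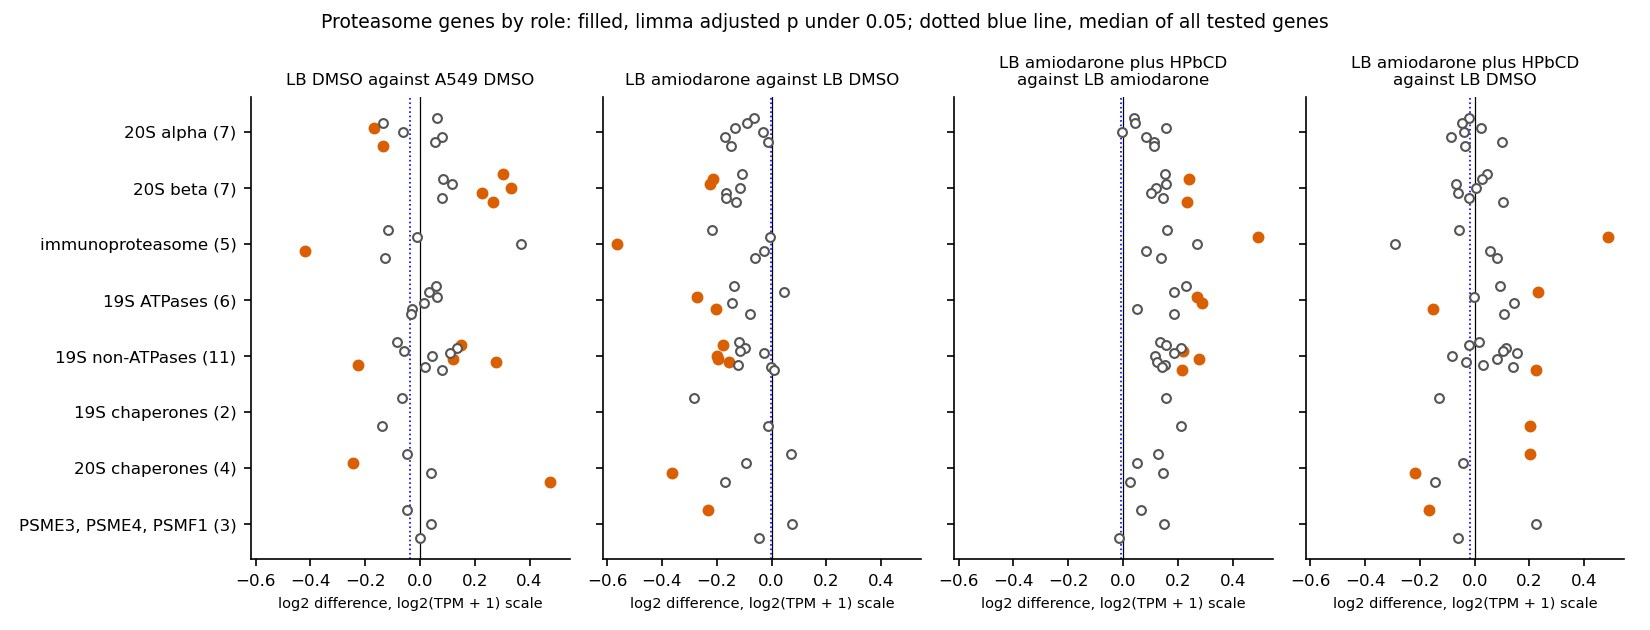
Log2 difference of each of the 45 tested proteasome genes (x axis, log2(TPM + 1) scale) by role (y axis, number tested in brackets) in the 4 comparisons, filled where the limma adjusted p was under 0.05, with the median of all tested genes as a dotted line. The 7 constitutive beta ring genes all lie above 0 in LB cells against A549, and with amiodarone all filled points, 11 in number, lie below 0.

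In LB cells with amiodarone, a minority of proteasome genes, spread over core, cap, chaperones and activators, were lower than with vehicle, and none was higher past the test. Of the 45 tested members 11 fell, against 3.72% of all genes tested, and 0 rose, against 4.9%, with 8.62% called in either direction. No member was higher at an unadjusted p under 0.05 either, and 0 rose in any of the 22 alternatives, limma without trend included. The log2 difference was negative for 41 of 45 members, with a median of -0.12 against -0.003 over all genes. In 21 members the 3 amiodarone libraries lay below all 3 LB DMSO libraries, against 14.8% of all genes.

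In the core, PSMB2 and PSMB3 fell, both structural beta subunits. PSMB3 stood at 484, 459 and 486 TPM in LB DMSO and at 422, 391 and 408 TPM with amiodarone. Every drug library was below every vehicle library, and PSMB3 fell by 14.5% (log2 difference -0.23 ± 0.04 SE, limma adjusted p = 0.0068). PSMB2 was at 99.4, 95.97 and 100.95 TPM with vehicle and at 84.7, 85.0 and 85.2 TPM with drug, and fell by 13.98% (limma adjusted p = 0.0151). None of the 3 constitutive catalytic genes passed, though in each all drug libraries lay below all vehicle libraries. PSMB5 lay closest, going from 323.8 ± 9.8 to 288.7 ± 11.7 TPM (limma adjusted p = 0.0532). PSMB6 went from 518.8 ± 15.9 to 463.0 ± 29.04 TPM (adjusted p = 0.07) and PSMB7 from 357.8 ± 9.7 to 326.7 ± 6.0 TPM (0.088). Of the 7 constitutive beta genes, 6 were lower at an unadjusted p under 0.05. The alpha ring had 0 of 7 genes past the test by limma (2 lower at an unadjusted p under 0.05), PSMA7 lying closest (adjusted p = 0.0535).

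In the cap, 6 of 17 genes fell. Of the ATPases, PSMC5 stood at 244, 250.5 and 254 TPM with vehicle and at 216, 214 and 219.9 TPM with drug, a fall by 13.2% (log2 difference -0.20 ± 0.04 SE, limma adjusted p = 0.009). PSMC3, another ATPase, fell by 17.01% from 223.2 ± 2.5 to 185.3 ± 15.0 TPM, 1 drug library reading 168 TPM. PSMC2, in contrast, had a slightly higher mean with drug. Of the non-ATPases, PSMD2, a scaffold that docks ubiquitin shuttles, fell by 12.8%, PSMD3 by 12.6%, PSMD11 by 11.6% and PSMD4 by 10.2%. PSMD8 and the deubiquitinating subunit PSMD14 were among the 7 that did not pass.

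The lowest adjusted p among the members belonged to PSMG3 (PAC3), a chaperone of alpha ring assembly that works with PSMG4. It stood at 98.1, 102 and 101.4 TPM with vehicle and at 78.8, 78.9 and 75.9 TPM with amiodarone, and fell by 22.5% (log2 difference -0.36 ± 0.05 SE, limma adjusted p = 0.00046). Of the other activators, PSME3 (PA28 gamma), a nuclear relative of PSME1 and PSME2 that is not interferon-induced, fell by 14.9% from 267.3 ± 9.8 to 227.5 ± 10.5 TPM (limma adjusted p = 0.0174). PSME4 and PSMF1 did not pass.

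Among the immunoproteasome genes only PSMB9 passed. It read 41.7, 43.1 and 36.8 TPM with vehicle and 26.5, 28.0 and 26.7 TPM with amiodarone. The groups were well apart, and the fall by 33.3% was the largest in size of any member in this comparison (log2 difference -0.56 ± 0.14 SE, limma adjusted p = 0.0254). PSMB8 was at 29.6 ± 2.1 TPM with vehicle and 29.5 ± 3.3 with drug, with a 95% interval of the log2 difference from -0.20 to 0.19. PSMB10 went from 51.1 ± 1.7 to 43.8 ± 1.3 TPM with no overlap (adjusted p = 0.146), and PSME1 and PSME2 stayed within their spread. The differences among these 5 genes were not tested.

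Only PSMB3, PSMC5 and PSMG3 kept their calls in each of the 22 alternatives. The count of 11 fell to 5, 7 and 4 without LB DMSO replicates 1, 2 and 3 and to 5 and 7 without amiodarone replicates 2 and 3, and to 6 by limma without trend. PSMB9 was lost without LB DMSO replicate 1 or 2 or any amiodarone library (adjusted p up to 0.0853), PSMB2 without LB DMSO replicate 1 or 3 (up to 0.066), PSMC3 without LB DMSO replicate 3 (0.0521), PSMD3 without LB DMSO replicate 2 or 3 or amiodarone replicate 2 (up to 0.0675), and PSME3 without LB DMSO replicate 1 or 3 or amiodarone replicate 1 or 2 (up to 0.0756). PSMD2 was lost without any LB DMSO library or amiodarone replicate 2 or 3 (up to 0.116), PSMD4 without these or replicate 3 of amiodarone plus HPbCD (up to 0.113), and PSMD11 without these, A549 DMSO replicate 1 or amiodarone plus HPbCD replicate 1 or 3 (up to 0.155).

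**Figure D3:**
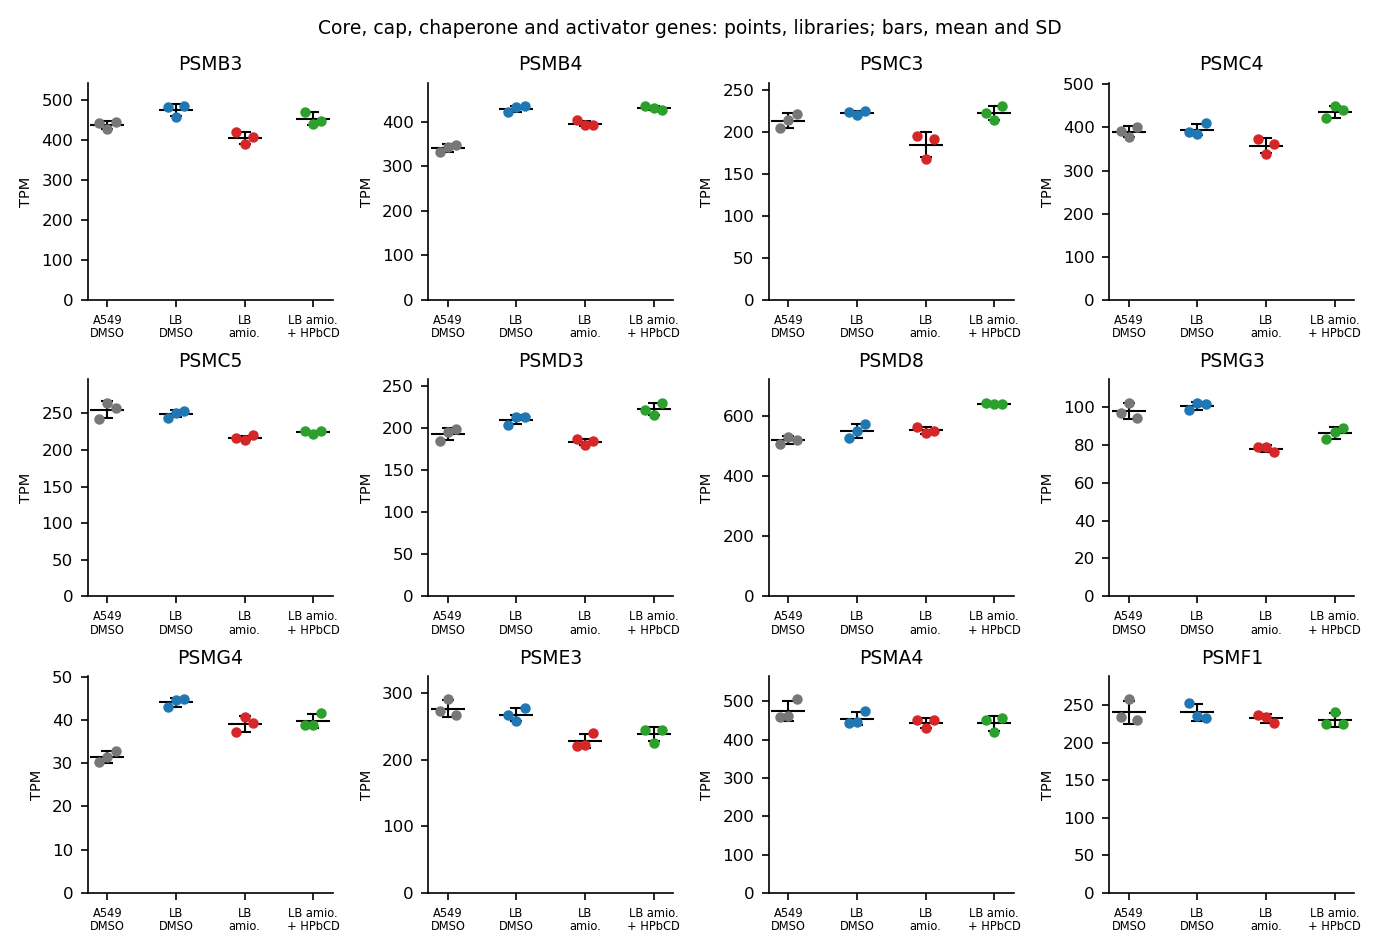
TPM (y axis) of 12 core, cap, chaperone and activator genes in each library (points) of the 4 groups (x axis), with bars for the mean and SD of 3 libraries. PSMG3 reads 98.1 to 102 TPM in LB DMSO and 75.9 to 78.9 TPM with amiodarone and PSMD8 reads 639.8 to 644.8 TPM with HPbCD and at most 574.2 TPM elsewhere.

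With HPbCD added to amiodarone, 8 genes of the cap, the beta ring and the immunoproteasome were higher than with the drug alone. Of the 45 tested members 8 rose, against 2.71% of all genes tested, and 0 fell, against 1.36%, with 4.07% called in either direction. No member was lower at an unadjusted p under 0.05, and 0 fell in any of the 22 alternatives, limma without trend included. The log2 difference was positive for 43 of 45 members, the exceptions being PSMA4 and PSMF1, with a median of 0.15 against -0.008 over all genes. In 28 members the 3 libraries with HPbCD lay above all 3 with amiodarone alone, against 12.9% of all genes. This comparison and the preceding one share the amiodarone libraries, so a library that reads low there moves both in opposite directions.

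In the cap, 5 of 17 genes rose and all 17 had positive differences. PSMC4, a cap ATPase, stood at 373, 338 and 361 TPM with amiodarone and at 421, 449 and 439 TPM with HPbCD added. The groups did not overlap, and PSMC4 rose by 22.2% (log2 difference 0.29 ± 0.05 SE, limma adjusted p = 0.0045). PSMD3, a lid subunit, went from 186, 179 and 184 TPM to 221, 215 and 229.6 TPM. Its spread was small in both groups, and the rise was 21.2% (log2 difference 0.28 ± 0.04 SE, limma adjusted p = 0.0036). PSMC3 rose by 20.3% and PSMD13, another lid subunit, by 16.5%. PSMD8 rose by 16.1% from 552.8 ± 11.6 to 641.9 ± 2.6 TPM, and was the most abundant member in both groups (limma adjusted p = 0.009).

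In the core, PSMB2 rose by 18.4% and PSMB7 by 17.5%, the latter from 333, 321 and 326 TPM to 385, 385 and 382 TPM. For PSMB7 all 3 libraries with HPbCD read nearly alike and above every other library of the 4 groups (limma adjusted p = 0.0108). The other 5 constitutive beta genes had positive differences without passing. The alpha ring again had 0 of 7 genes past the test by limma (2 higher at an unadjusted p under 0.05). None of the 6 chaperones and none of PSME3, PSME4 and PSMF1 passed, PSME3 going from 227.5 ± 10.5 to 238.0 ± 10.8 TPM.

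PSMB8, the inducible counterpart of PSMB5, had the largest rise of all members. It read 31.5, 31.4 and 25.7 TPM with amiodarone and 44.1, 43.5 and 38.03 TPM with HPbCD added. The lowest library with HPbCD lay above the highest of the other 9, and the rise was 41.9% (log2 difference 0.49 ± 0.09 SE, limma adjusted p = 0.0087). PSMB9, its neighbour on chromosome 6, read 26.5, 28.0 and 26.7 TPM with amiodarone and 37.4, 37.3 and 25.3 TPM with HPbCD. The third of these libraries lay below the drug alone and the other two above it, so the groups overlapped (limma adjusted p = 0.327, and 0.0475 without amiodarone plus HPbCD replicate 3). That library also gave the lowest reading of its group for PSMB8, PSMB10, PSME1 and PSME2. For PSMB8 and PSME1, replicate 3 was the lowest in LB DMSO and with amiodarone alone as well. PSMB10 went from 43.8 ± 1.3 to 49.2 ± 3.6 TPM, PSME1 from 117.4 ± 8.3 to 124.4 ± 7.3 TPM, and PSME2 from 207.5 ± 7.4 to 228.7 ± 10.5 TPM, none past the test.

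PSMB8, PSMC4 and PSMD3 kept their calls in each of the 22 alternatives, and PSMB7 and PSMD8 lost theirs only by limma without trend, which left 4 genes past the test. Without amiodarone plus HPbCD replicate 1 the count fell from 8 to 5. PSMB2 was lost without amiodarone plus HPbCD replicate 1 or 3 (adjusted p up to 0.0655), PSMC3 without those or amiodarone replicate 2 (up to 0.0978), and PSMD13 without any single library of the LB groups (up to 0.169).

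**Figure D4:**
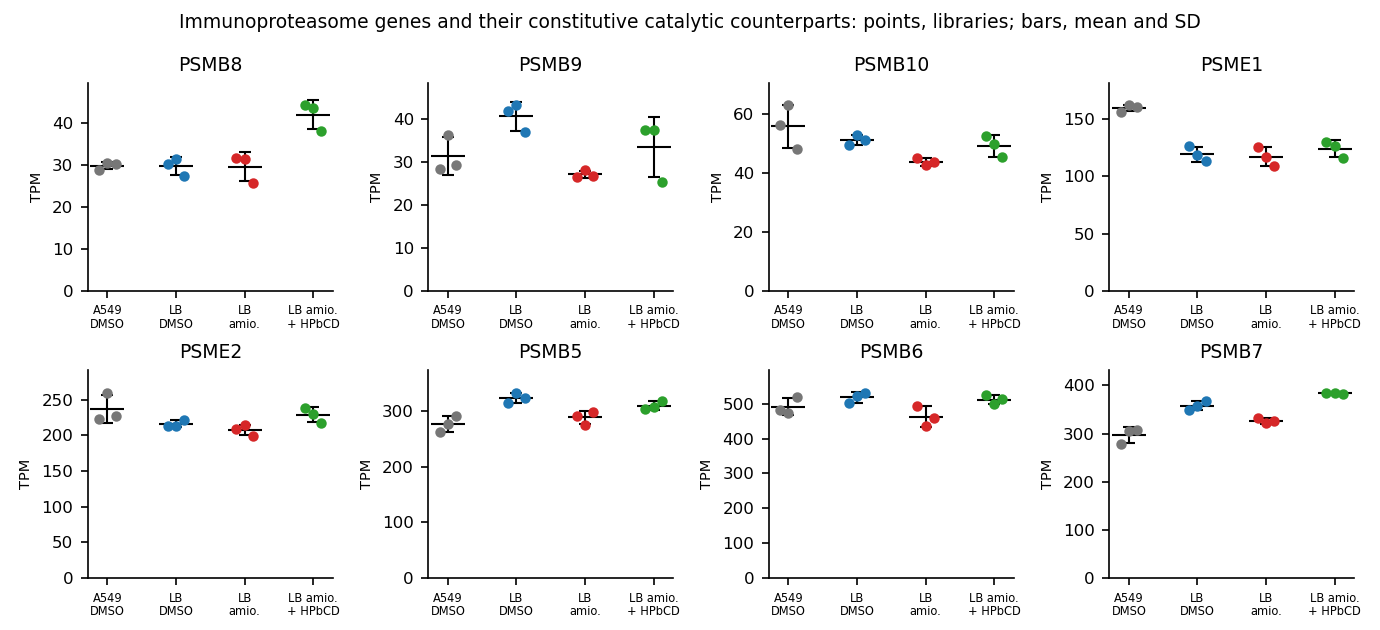
TPM (y axis) of the 5 immunoproteasome genes and of PSMB5, PSMB6 and PSMB7 in each library (points) of the 4 groups (x axis), with bars for the mean and SD of 3 libraries. PSMB8 reads 38.03 to 44.1 TPM with HPbCD against 25.7 to 31.5 TPM in the other 9 libraries, PSMB9 reads 26.5 to 28.0 TPM with amiodarone alone, and PSME1 reads 157 to 162 TPM in A549 against 109 to 130.2 TPM in the LB groups.

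Set against LB cells that had neither agent, cells with amiodarone plus HPbCD had no constitutive core gene past the test. PSMB8, alone of the 5 immunoproteasome genes, and 2 of 17 cap genes (PSMC2 and PSMD8) were higher, and the cap gene PSMC5 was lower. Of the 45 tested members 5 rose, against 10.1% of all genes tested, and 3 fell, against 7.81% (17.9% in either direction), so that both shares were near the background. By limma, 0 of the 14 tested core genes passed, with 1 higher and 0 lower at an unadjusted p under 0.05 and a median log2 difference of -0.02. The 17 cap genes had a median of 0.09. Over all members the median was 0.02, against -0.02 over all genes, and it turned to -0.03 with quantile normalization.

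PSMB8 rose by 41.6%, from 30.2, 31.3 and 27.2 TPM to the 3 values above 38 TPM already given (limma adjusted p = 0.0024). PSMB9 went from 40.5 ± 3.3 to 33.3 ± 7.0 TPM (limma adjusted p = 0.163) and PSMB10 from 51.1 ± 1.7 to 49.2 ± 3.6 TPM (0.703 by the same test). PSME1 and PSME2 had slightly higher means without passing. The 3 inducible catalytic genes made 9.35 ± 0.98% of the summed TPM of the 6 catalytic genes, against 9.17 ± 0.50% with vehicle. PSMC2, a cap ATPase that did not pass in the other comparisons, went from 141, 141 and 144 TPM to 171, 161 and 168 TPM, a rise of 17.4% with no overlap (log2 difference 0.23 ± 0.05 SE, limma adjusted p = 0.0092). PSMD8 rose by 16.7% (limma adjusted p = 0.0019). The chaperones PSMD9 and PSMG1 rose by 14.9% and 15.2%. PSMG3 stood at 82.9, 86.8 and 88.9 TPM, between the vehicle and the drug alone and overlapping neither. It fell by 14.2% against vehicle (limma adjusted p = 0.0065) and did not pass against the drug alone (limma adjusted p = 0.118). PSMC5 fell by 10.1% and PSME3 fell by 10.97%.

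PSMB8, PSMC2, PSMD8 and PSMG3 kept their calls in each of the 22 alternatives. PSMC5 was lost without LB DMSO replicate 2 or 3 or any library of amiodarone plus HPbCD, the HPbCD libraries for short (adjusted p up to 0.0753), PSMG1 without any LB DMSO library, amiodarone replicate 1 or HPbCD replicate 1 or 3 (up to 0.146), PSMD9 without A549 DMSO replicate 1, LB DMSO replicate 1 or 3, amiodarone replicate 1 or 3 or any HPbCD library (up to 0.174), and PSME3 without A549 DMSO replicate 1, amiodarone replicate 1 or 2 or any LB DMSO or HPbCD library (up to 0.149). The replicate block ended the calls of PSMD9 and PSME3. The count that rose was 3 without LB DMSO replicate 1 or HPbCD replicate 1 or 3, and the count that fell was 1 without LB DMSO replicate 2 or 3 or any HPbCD library. The split of 5 higher and 3 lower became 7 and 2 with median-of-ratios scaling and 4 and 7 with quantile normalization.

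Ratios within a library set the 3 assemblies against each other and are given as descriptions with no test. The 17 cap genes summed to 0.833 to 0.871 of the 14 detected core genes in A549, 0.835 to 0.848 in LB DMSO, 0.845 to 0.854 with amiodarone and 0.883 to 0.904 with amiodarone plus HPbCD. The 3 libraries with HPbCD lay above the other 9, which overlapped. With amiodarone the core sum was 4055 ± 146 TPM against 4428 ± 100 with vehicle, and the cap sum 3441 ± 131 against 3733 ± 99, so both were lower and their ratio moved little. With HPbCD added the core sum was 4404 ± 106 TPM and the cap sum 3934 ± 55 TPM. The ratio of PSMB8 to PSMB5 was 0.103 to 0.110 in A549, 0.0840 to 0.0962 in LB DMSO, 0.0858 to 0.114 with amiodarone and 0.119 to 0.145 with HPbCD added. That of PSMB9 to PSMB6 was 0.0691 to 0.0831 in LB DMSO, 0.0536 to 0.0641 with amiodarone and 0.0493 to 0.0749 with HPbCD, so the amiodarone libraries lay below vehicle and HPbCD spanned both. PSMB10 to PSMB7 was 0.157 to 0.206 in A549 and 0.119 to 0.148 over all LB libraries, with no overlap. PSME1 to PSME2 was 0.624 to 0.706 in A549 and 0.511 to 0.602 in the LB groups, again with no overlap.

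**Figure D5:**
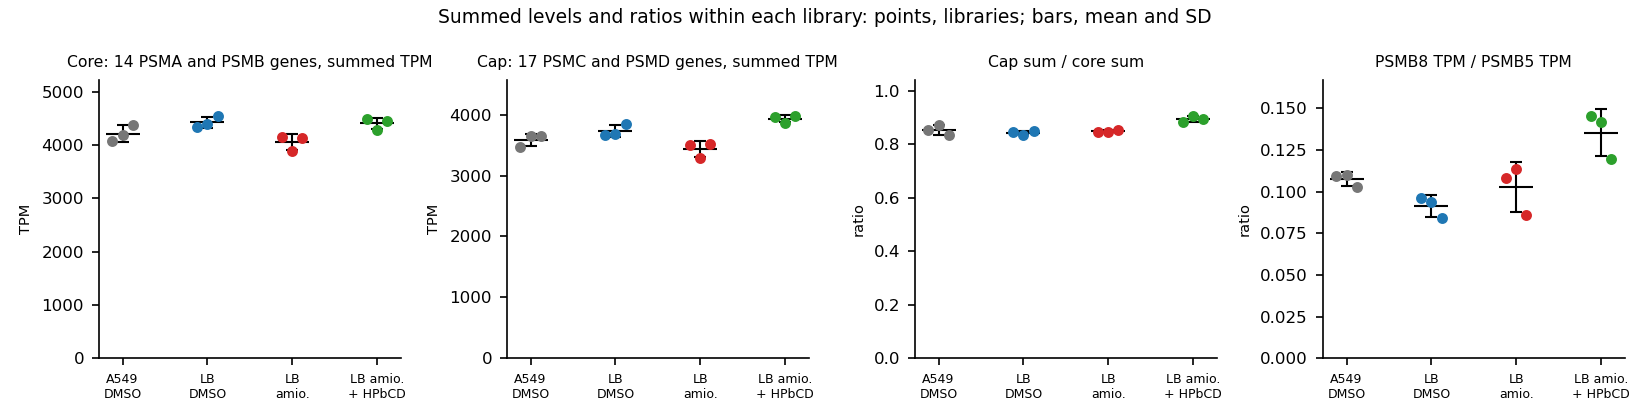
Summed TPM of 14 core and 17 cap genes (y axis, TPM), the ratio of the cap sum to the core sum and the ratio of PSMB8 to PSMB5 (y axis, ratio) in each library (points) of the 4 groups (x axis), with bars for the mean and SD of 3 libraries. The cap-to-core ratio is 0.883 to 0.904 with HPbCD against 0.833 to 0.871 in the other 9 libraries.

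The genes around the proteasome were read from 4 further lists. Their counts stand against the shares of all tested genes given above, which were 14.2% higher and 18.2% lower in LB cells against A549, 4.9% and 3.72% with amiodarone, 2.71% and 1.36% with HPbCD against amiodarone, and 10.1% and 7.81% with HPbCD against vehicle. Of 7 tested subunits and assembly factors outside the rule, 2 rose in LB cells against A549 (14.2% of all genes), 1 fell with amiodarone (3.72%), 1 rose with HPbCD against amiodarone (2.71%) and 1 rose with HPbCD against vehicle (10.1%). The last of these is near the background. POMP, the maturation factor that completes core assembly, stood at 85.8, 85.5 and 90.2 TPM in A549, at 100.6, 102 and 102 in LB DMSO, at 111, 106 and 113 with amiodarone and at 131, 112 and 125 with HPbCD added. It rose in LB cells by 16.5% (limma adjusted p = 0.011) and with both agents against vehicle by 21.0% (0.0063 by the same test), and did not pass between vehicle and amiodarone. ADRM1, a ubiquitin receptor of the cap, fell by 16.1% with amiodarone, from 172.0 ± 3.7 to 144.3 ± 2.4 TPM (limma adjusted p = 0.0011), and rose by 12.5% with HPbCD, a call lost without amiodarone replicate 2 or 3 or any HPbCD library (adjusted p up to 0.0818). PSMD10 (gankyrin), a cap chaperone, passed in no comparison (83.9 ± 7.4, 73.5 ± 2.7, 75.5 ± 7.1 and 72.0 ± 3.2 TPM in the 4 groups).

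Of the 7 genes that control proteasome gene expression, 2 rose in LB cells (14.2% of all genes), 1 with amiodarone (4.9%), 2 with HPbCD against amiodarone (2.71%) and 4 with HPbCD against vehicle (10.1%), and none fell in any of the 4 comparisons. NFE2L1 read 138.4 ± 3.0 TPM in A549, 159.6 ± 12.1 in LB DMSO, 169.0 ± 7.4 with amiodarone and 179.6 ± 2.2 with HPbCD added. It rose in LB cells by 15.3% (limma adjusted p = 0.0132, and 0.0592 without LB DMSO replicate 3) and with both agents against vehicle by 12.5%, a call at the threshold (0.0483) that was lost without 9 of the 12 libraries, those other than A549 DMSO replicate 2, LB DMSO replicate 3 and amiodarone replicate 3 (up to 0.173). NFE2L1 is known to be controlled mainly after translation, which RNA levels do not show. NFE2L2, the oxidative stress factor NRF2, passed in no comparison. MAFK, a small MAF partner of both, read 122.6 ± 11.2 TPM with vehicle, 101.2 ± 4.9 with amiodarone and 159.1 ± 4.2 with HPbCD added. With HPbCD it rose by 57.2% against amiodarone (limma adjusted p = 0.00088) and by 29.8% against vehicle (0.0075 by the same test). MAFF rose from 3.85 ± 0.49 to 6.09 ± 0.33 TPM with amiodarone (limma adjusted p = 0.01).

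Of the 21 genes of ubiquitin supply and shuttling, 5 rose and 3 fell in LB cells, 0 rose and 1 fell with amiodarone (limma; 0 and 4 at an unadjusted p under 0.05), 3 rose and 0 fell with HPbCD against amiodarone (2 lower at an unadjusted p under 0.05), and 4 rose and 2 fell with HPbCD against vehicle. Beside the shares of all genes just given, the counts that fell in LB cells, with amiodarone and with HPbCD against vehicle were near the background. UBB, a polyubiquitin gene, stood at 73.9, 67.4 and 78.0 TPM with amiodarone and at 96.4, 93.5 and 92.5 TPM with HPbCD added, a rise of 28.8% without overlap (limma adjusted p = 0.0045). ZFAND2A (AIRAP), a proteasome-binding protein induced by arsenite, rose by 31.5% with HPbCD against amiodarone (limma adjusted p = 0.0061).

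The immunoproteasome serves class I peptide loading, and 12 genes of that step and its regulators were read beside it. With HPbCD against amiodarone 7 of 12 rose (2.71% of all genes) and none fell, with a median log2 difference of 0.49, against 1 of 5 and 0.16 for the immunoproteasome genes (the 2 lists were not compared by a test). With HPbCD against vehicle 9 of 12 rose (10.1% of all genes). With amiodarone against vehicle 2 rose and 1 fell (4.9% and 3.72%), and in LB cells against A549 6 rose and 1 fell (14.2% and 18.2%). TAP1, which faces PSMB9 across their shared promoter region, read 36.6, 40.0 and 36.7 TPM with vehicle, 35.6, 35.9 and 33.0 with amiodarone and 48.6, 50.4 and 42.2 with HPbCD added. It rose by 35.0% with HPbCD against amiodarone (limma adjusted p = 0.0158), a call lost without amiodarone replicate 3 or HPbCD replicate 1 or 2 (up to 0.0712), and did not pass between vehicle and amiodarone (adjusted p = 0.474), where PSMB9 fell. TAP2 was the gene of this list that fell with amiodarone, from 38.4 ± 6.4 to 24.3 ± 2.8 TPM. The fall was 36.8%, without overlap (limma adjusted p = 0.0297). The differences among TAP1, TAP2 and PSMB9 were not tested. Of the regulators of the interferon response, IRF1 rose by 44.2% with HPbCD against amiodarone, from 18.6 ± 1.6 to 26.9 ± 2.4 TPM (limma adjusted p = 0.0072).

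Some members share bases or sequence with other genes. In GENCODE 29 on GRCh38, PSMB8 (chr6:32840717-32844703) and PSMB9 (chr6:32844136-32859585) lie on opposite strands and overlap by 568 bases, and PSMB9 overlaps TAP1 by 8770 bases, also on the opposite strand. PSMC5 overlaps FTSJ3 by 2861 bases and PSME3 overlaps BECN1 by 8966 bases, each on the opposite strand. The libraries were made with a stranded kit, per the labels, but the sources used here do not say whether strand was used in counting. PSMA2 and PSMB10 share a strand with another annotated coding gene over 15318 and 1516 bases, and PSMC1 has 13 pseudogene rows, the highest at 12.6 TPM, so their values are less certain.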

How the data were processed

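Stranded mRNA libraries were read as paired ends, per the labels' protocols. The authors deposited a single table of TPM values. The submitters' processing notes name RSEM 1.3.1, STAR 2.7.3a and the build GRCh38, and no annotation release is named in the sources used here. Of its 57189 rows, 37 held no value, and 0 columns lacked a sample. TPM allows no count model. Values were taken as log2(TPM + 1), genes with a mean under 1 TPM were left out (13968 remained), and limma 3.58.1 (R 4.3.3, empirical Bayes with trend) fitted a linear model of all 4 groups with 8 residual degrees of freedom. Tests were two-sided, with Benjamini-Hochberg adjustment over all tested genes in each comparison and a threshold of 0.05. Percent differences are ratios of mean TPM. The fit was tested on simulated data. Positions came from GENCODE 29 and promoters from RefSeq on GRCh38.p14. Every member could be named; from the 4 related lists, at most 5 genes each with the largest differences past the test, and TAP1, NFE2L1, NFE2L2, POMP and PSMD10 whatever their values. Some genes of these lists are not reported here. Alternatives were pseudocounts of 0.1 and 5, no filter or a filter at 5 TPM, median-of-ratios scaling, quantile normalization, limma without trend or with robust variance, a fit restricted to the compared groups, the replicate block and leaving out each library. The members and lists were chosen with earlier results of these data known. The planned comparison of protein sequences was not run.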

Additional observations from a re-analysis of the deposited data

How the results depend on the processing

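TPM hides depth, so low members such as PSME4 and PSMB8 carry an unknown counting error. No member past the test changed sign under any of the 22 alternatives. Of the members past the test, 8 of 13 in LB cells against A549, 3 of 11 with amiodarone, 3 of 8 with HPbCD against amiodarone and 4 of 8 with HPbCD against vehicle passed in every alternative. The scalings moved the median of all genes by less than 0.1 on the log2 scale in each comparison.

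In LB cells against A549, the count that rose (8) was 13 with quantile normalization, and the count that fell (5) was 3 with no filter, 2 with median-of-ratios scaling, 3 with quantile normalization and 3 by limma without trend. Without trend, limma gave 6 members that fell with amiodarone in place of 11 and 4 that rose with HPbCD against amiodarone in place of 8. With HPbCD against vehicle, the count that rose (5) was 3 with no filter and 3 without trend, and the count that fell (3) was 7 with quantile normalization and 1 without trend. The cause was not tested.

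Leaving out each library in turn gave 6 to 8 members that rose and 2 to 5 that fell in LB cells against A549, 0 to 0 and 4 to 13 with amiodarone, 5 to 10 and 0 to 0 with HPbCD against amiodarone, and 3 to 6 and 1 to 3 with HPbCD against vehicle.

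Libraries share replicate numbers across groups. Deviations of same-numbered libraries from their group means correlated at -0.027 to 0.212, above 0.1 for some and below it for others. The numbers were not taken as pairs in the main fit, and these values do not settle whether they are pairs. With the replicate number as a block, 10 members rose and 5 fell in LB cells, 0 and 12 with amiodarone, 10 and 0 with HPbCD against amiodarone, and 5 and 2 with HPbCD against vehicle. As a hint from the data, every library correlated best with its own number in LB DMSO against A549 DMSO, and 2 of 3 did in each of the other 3 pairs of groups. Replicate 3 gave the lowest PSMB8 and PSME1 readings in each LB group.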
